A study of Gallus gallus with 9 samples.

Results

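The genes described here are 7 factors known for pluripotency or for the founding of the germ line: SALL4, TFAP2C, PRDM1, LIN28A, LIN28B, KLF4 and SOX2. They, and the gene lists read beside them, were chosen by symbol with earlier results of these data known. All 7 were measured, by 9 of the 38439 probe sets tested and as 7 of 13009 genes, and where a gene had a pair of probe sets the one with the higher mean over the 9 arrays stood for it. The values come from chicken gonads taken from embryos of 6.5 days, labelled WL, whose cells were divided by MACS (magnetic sorting with antibody-bound beads) into fractions labelled PGC (3 arrays) and GSC (6 arrays). PGC commonly stands for primordial germ cell, the embryonic founder of eggs and sperm. The labels do not spell out GSC, name the sorting antigen, give the sex, or say whether replicates were separate pools of embryos, so the spread between replicates may be technical.

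In mouse, PRDM1 (also called BLIMP1) shuts down somatic genes when germ cells are set aside, and TFAP2C acts downstream of it. LIN28A and LIN28B are RNA-binding proteins that block the maturation of let-7 microRNAs, which otherwise promote differentiation. SALL4 is a zinc finger factor of embryonic stem cells and early germ cells, and SOX2 and KLF4 are factors used to reprogram mammalian somatic cells to pluripotency. NANOG, POU5F3 and PRDM14, which belong to the same network, were not analysed here.

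Each value is the authors' RMA expression value on a log2 scale, so a difference of 1 is a doubling. RMA compresses low values, and no detection calls were used. As a guide to faint signal, the 95th percentile of the 57 reporter probe sets on the array, which are not directed at chicken genes, lay at 2.88 and is called the reporter mark. A gene was called higher or lower in PGC at a limma adjusted p under 0.05 (Benjamini-Hochberg over all 13009 genes), and over all genes 22.5% were called higher and 19.5% lower, 42% in all. In bulk samples, a change in how many cells express a gene and in how much RNA each cell holds cannot be told apart. PGC replicate 3 correlated more closely with the GSC arrays (r 0.956 to 0.969 over all probe sets) than PGC replicate 1 (0.930 to 0.941) or PGC replicate 2 (0.942 to 0.950) did.

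Of the 7 factors, 4 were called higher in PGC (SALL4, TFAP2C, LIN28A and LIN28B), 0 were called lower, and PRDM1, KLF4 and SOX2 did not pass. Their median log2 fold change was 0.65, against -0.02 over all genes, and is the value of a single faint gene, LIN28B. The 4 genes also had all PGC arrays above all GSC arrays, as did 19.7% of all genes. Only SALL4, TFAP2C and LIN28A stood above the reporter mark in all 3 PGC arrays, and PRDM1, LIN28B and KLF4 lay below it in all 9 arrays.

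**Figure D1:**
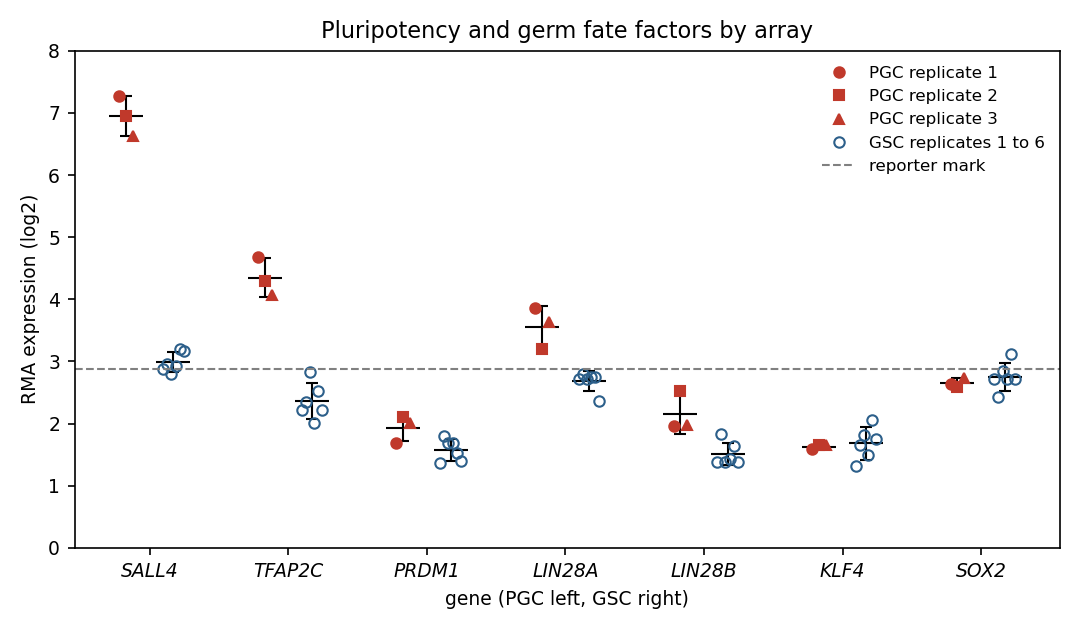
RMA expression (log2) of the 7 factors in each array, with PGC (filled red, 1 symbol per replicate) left of GSC (open blue). Black bars are means ± SD (n = 3 PGC and 6 GSC) and the dashed line is the reporter mark of 2.88. SALL4 shows the widest gap, 3.42 between the lowest PGC and the highest GSC array, whereas PRDM1, KLF4 and SOX2 overlap.

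SALL4, the zinc finger factor, measured 7.27, 6.95 and 6.62 in PGC replicates 1 to 3, against GSC values from 2.80 to 3.21 with a median of 2.94. The fractions were widely separated, with the lowest PGC value 3.42 above the highest GSC value. PGC averaged 6.95 ± 0.32 and GSC 2.99 ± 0.16 (SD, n = 3 and 6), and the fitted log2 difference was 3.96 ± 0.15 (SE, limma adjusted p = 5.7e-08). With the single GSC array below the mark set at the mark, SALL4 was at least 15.4-fold higher in PGC. Only 26 of the 13009 genes, SALL4 included, had a fitted change of this size or larger (0.2%).

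A second SALL4 probe set, of the type whose probes may match several transcripts, gave 7.26, 7.03 and 6.36 in PGC replicates 1 to 3, against 2.27 to 2.63 in GSC. All 6 GSC arrays lay below the mark here, so the gene was at least 16.0-fold higher by this probe set. Both probe sets had their lowest PGC value in PGC replicate 3. Tested among all 38439 probe sets, of which 13.8% were called higher, this one had a fitted log2 difference of 4.40 ± 0.18 (SE, limma adjusted p = 2.284e-07).

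TFAP2C, the AP-2 gamma transcription factor, measured 4.68, 4.29 and 4.06 in PGC replicates 1 to 3, against 2.01 to 2.83 in GSC with a median of 2.29. All PGC arrays stood above the reporter mark and all 6 GSC arrays below it. PGC averaged 4.35 ± 0.31 and GSC 2.36 ± 0.29 (SD, n = 3 and 6), and the fitted log2 difference was 1.99 ± 0.18 (SE, limma adjusted p = 1.237e-05). Against the mark, TFAP2C was at least 2.76-fold higher in PGC. A fitted change at least as large was found for 331 genes, 2.54% of those tested.

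PRDM1, the repressor of somatic genes, measured 1.69, 2.11 and 2.01 in PGC replicates 1 to 3, against 1.36 to 1.81 in GSC with a median of 1.61. All 9 values lay below the reporter mark, and the lowest PGC array fell within the GSC range. PGC averaged 1.94 ± 0.22 and GSC 1.58 ± 0.18 (SD, n = 3 and 6), with a fitted log2 difference of 0.36 ± 0.13 (SE, limma adjusted p = 0.051) and a 95% interval of 0.06 to 0.65. The gene thus stood next to the threshold, and 7 of 17 other settings called it higher, with adjusted p between 0.023 and 0.240 over all of them. No fold is given, because both fractions were below the mark.

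LIN28A, 1 of the pair of let-7 blockers, measured 3.85, 3.20 and 3.63 in PGC replicates 1 to 3, against 2.36 to 2.80 in GSC with a median of 2.74. The fractions did not overlap, although the gap was only 0.40. PGC averaged 3.56 ± 0.33 and GSC 2.68 ± 0.16 (SD, n = 3 and 6), and the fitted log2 difference was 0.88 ± 0.15 (SE, limma adjusted p = 0.00072). All 6 GSC arrays lay below the mark, so LIN28A was at least 1.60-fold higher in PGC. A change at least as large was fitted for 1260 genes, 9.69% of those tested.

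The other LIN28A probe set gave 3.70, 3.67 and 3.09 in PGC replicates 1 to 3, against 1.99 to 2.63 in GSC. It was called higher among all probe sets as well (log2 fold change 1.09 ± 0.18 SE, limma adjusted p = 0.00091). Here PGC replicate 3 was the lowest PGC array, whereas PGC replicate 2 was the lowest by the brighter probe set. The order of the PGC arrays for LIN28A is therefore not read.

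**Figure D2:**
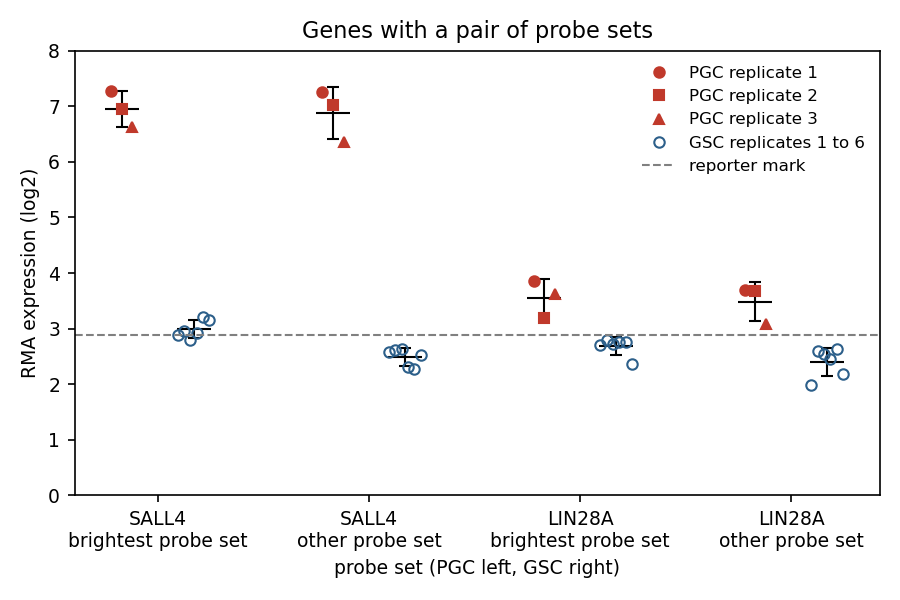
RMA expression (log2) of both probe sets of SALL4 and of LIN28A in each array, with PGC (filled red) left of GSC (open blue). Black bars are means ± SD and the dashed line is the reporter mark of 2.88. Each of the 4 probe sets has all PGC arrays above all GSC arrays, with gaps of 3.42 and 3.74 for SALL4 and of 0.40 and 0.46 for LIN28A.

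LIN28B, the paralogue of LIN28A, measured 1.96, 2.52 and 1.98 in PGC replicates 1 to 3, against 1.39 to 1.83 in GSC with a median of 1.41. The fractions were apart by 0.13, and all 9 arrays were below the reporter mark, so no fold is given. PGC averaged 2.16 ± 0.32 and GSC 1.51 ± 0.18 (SD, n = 3 and 6), and the fitted log2 difference was 0.65 ± 0.15 (SE, limma adjusted p = 0.0052). Among the 3162 genes whose mean lay below the mark, 11.4% were called higher in PGC. The call was lost with GSC replicates 1 to 3 alone (log2 fold change 0.62, adjusted p = 0.062).

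KLF4, a Krüppel-like factor, measured 1.58, 1.65 and 1.65 in PGC replicates 1 to 3, against 1.31 to 2.06 in GSC with a median of 1.70. The PGC values lay inside the GSC range and all 9 arrays were below the mark. The fitted log2 difference was -0.05 ± 0.15 (SE, limma adjusted p = 0.807), with a 95% interval of -0.38 to 0.27. At this signal the measurement does not show whether KLF4 is expressed in either fraction.

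SOX2, an HMG-box factor, measured 2.63, 2.59 and 2.74 in PGC replicates 1 to 3, against 2.43 to 3.12 in GSC with a median of 2.71. Only GSC replicate 5 stood above the reporter mark. The fitted log2 difference was -0.10 ± 0.14 (SE, limma adjusted p = 0.585), with a 95% interval of -0.40 to 0.19. SOX3, the closely related SOXB1 factor, measured 9.75, 9.46 and 9.33 in PGC replicates 1 to 3, against 4.11 to 4.86 in GSC. SOX3 was called 33.1-fold higher, whereas SOX2 was not called. As SOX2 lay below the mark in every array but GSC replicate 5, the measurement does not show whether it is expressed in either fraction.

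The called factors were followed across the PGC replicates. On a scale where the GSC mean is 0% and the mean of PGC replicates 1 and 2 is 100%, PGC replicate 3 stood at 88.1% and 83.2% by the brighter and the other SALL4 probe set, at 80.2% for TFAP2C and at 64.6% for LIN28B. LIN28B lay below the reporter mark in all arrays, with 1.96, 2.52 and 1.98 in PGC replicates 1 to 3. Its value in PGC replicate 3 was thus below PGC replicate 2 only, and its 64.6% is not read. For LIN28A the probe sets disagreed, with 112% by the brighter and 53.4% by the other. In the same array the 10 germ cell markers, such as DDX4 and DAZL, stood at 28.7% (TDRD1) to 88.9%, with a median of 77.7%. The 7 called mesonephric markers stood at 42.6% to 115% (median 94.1%). The 8 called gonadal somatic markers, which were lower in PGC, stood at -7.20% (FOXL2) to 76.6% (median 49.0%). Among the mesonephric markers the 42.6% was PAX2, called lower in PGC, and those called higher stood at 82.6% (SLC34A2) to 115%. The germ cell range overlaps each of the other ranges, with or without PAX2. Which list the factors go with was not tested. Without PGC replicate 3 the log2 fold change was 4.12 for SALL4, 2.13 for TFAP2C, 0.84 for LIN28A and 0.73 for LIN28B, and all were still called.

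Marker lists of the cell types that a gonad preparation can hold were read beside these values. All 10 germ cell markers were called higher in PGC, and their summed signal was 2205 to 4354 in PGC and 246 to 296 in GSC on the linear scale. Of 11 gonadal somatic markers, 8 were called lower and 0 higher, with sums of 2739 to 5361 in PGC and 5818 to 7444 in GSC. These sums came mostly from AMH and DMRT1, which did not pass, and the median log2 fold change of the list was -1.79. FOXL2 lost its call without PGC replicate 1 or PGC replicate 2. With single arrays left out, 7 to 10 gonadal somatic markers were called lower. Of 8 markers of mesonephric epithelium, the embryonic kidney beside the gonad, 6 were called higher and 1 lower (PAX2, -0.62). Their sums were 934 to 1363 in PGC and 129 to 189 in GSC. PAX2 was not called without PGC replicate 1, PGC replicate 2 or GSC replicates 1, 2 or 6 in turn. On the mean of its probe sets PAX2 was not called either (-0.18). HNF4A, a transcription factor of tubule epithelium, measured 5.26, 5.45 and 5.81 in PGC replicates 1 to 3 and 2.01 to 2.64 in GSC, while LHX1, another factor of the nephric lineage, stayed below the mark in all arrays.

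Of 7 neural and neural crest markers, 2 were called higher (ELAVL4 and FABP7) and 4 lower (median log2 fold change -0.47). Their sums were 931 to 960 in PGC, mostly from ELAVL4 and FABP7, and 548 to 672 in GSC. Only 2 of these markers were called lower without PGC replicate 1, as NEFL and SOX10 lost their calls. Endothelial markers were called lower in 6 of 7 genes, erythroid markers in 3 of 5 and leukocyte markers in 3 of 5, with 1 leukocyte marker (CYBB) called higher. Without PGC replicate 3, all 5 erythroid markers were called lower. That count was as low as 2 with other single arrays left out. RHAG lost its call without PGC replicate 1, PGC replicate 2 or GSC replicate 1, 2, 4, 5 or 6. The leukocyte marker CD74 lost its call without PGC replicate 1, PGC replicate 2 or any single GSC array. No marker was listed at 0. These 6 mesonephric and 2 neural markers were thus higher in the same fraction as SALL4, TFAP2C and the LIN28 genes, and their part in these results was not tested.

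**Figure D3:**
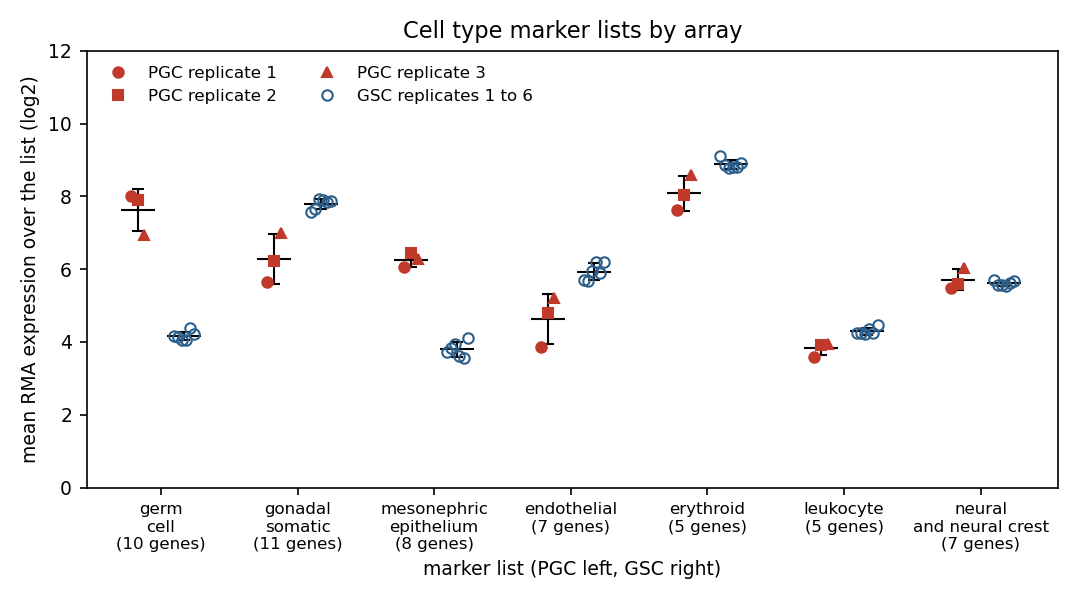
Mean RMA expression (log2) over each cell type marker list in each array, with PGC (filled red) left of GSC (open blue) and means ± SD as black bars. The germ cell list lies at 6.95 or above in PGC and at 4.06 to 4.37 in GSC, and the mesonephric list at 6.05 to 6.44 in PGC and 3.55 to 4.11 in GSC. PGC replicate 3 has the lowest germ cell mean and the highest gonadal somatic mean of the PGC arrays.

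The rest of the pluripotency network was read from a list of 21 measured genes, of which 7 were called higher, 5 lower and 9 did not pass (median log2 fold change 0.19). The 4 genes of the list with the largest change were SOX3, OTX2, EPCAM and DNMT3B. OTX2, a homeobox factor of anterior neural tissue and of the epiblast, measured 7.47, 7.01 and 6.75 in PGC replicates 1 to 3, against 2.01 to 2.72 in GSC, at least 18.4-fold higher. EPCAM, an adhesion molecule of epithelial and stem cells, averaged 9.42 ± 0.26 in PGC arrays and 5.49 ± 0.38 in GSC arrays (SD, n = 3 and 6), a 15.3-fold difference. DNMT3B, a de novo DNA methyltransferase, averaged 10.49 ± 0.18 in PGC arrays and 7.22 ± 0.32 in GSC arrays, a 9.68-fold difference. The other genes called higher were KLF5 (1.79), MYCN and TFCP2L1 (1.29 each, log2 fold change).

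The 5 network genes called lower in PGC, named after their values were seen, were MYC, NR0B1, LIFR, IL6ST and KLF2. LIFR and IL6ST encode the subunits of the receptor for leukaemia inhibitory factor, the cytokine that sustains mouse embryonic stem cells. LIFR averaged 7.81 ± 0.38 in PGC arrays and 8.89 ± 0.19 in GSC arrays (SD, n = 3 and 6), a log2 fold change of -1.08. IL6ST, below the mark in all PGC arrays, was at least 1.26-fold lower. The fractions overlapped for IL6ST, with 2.64 in PGC replicate 2 and 2.59 in GSC replicate 1. Its call was lost with GSC replicates 1 to 3 only, with or without the replicate block. NR0B1, a nuclear receptor also known from the gonad, had a log2 fold change of -1.32. KLF2 (-0.73) lost its call without PGC replicate 1, PGC replicate 2 or any of GSC replicates 1 to 4.

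The germ fate list held 19 measured genes, of which 9 were called higher, 3 lower and 7 did not pass (median 0.38). It overlaps the germ cell markers in DDX4, DAZL, DND1 and KIT, its 4 largest changes, which had log2 fold changes of 3.92 to 4.49. Beside these, named after their values were seen, the mesendoderm factors EOMES and TBXT were higher in PGC. EOMES measured 5.24, 4.95 and 4.59 in PGC replicates 1 to 3, against 2.42 to 2.84 in GSC, at least 4.13-fold higher. TBXT measured 3.49, 3.36 and 3.19 in PGC replicates 1 to 3, against 2.24 to 2.69 in GSC, at least 1.38-fold higher. The others called higher were the migration receptor CXCR4 (2.76), the Tudor domain gene TDRD7 (1.77) and WDR77. For CXCR4 all 6 GSC arrays lay below the mark, so it was at least 4.54-fold higher.

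Partners of PRDM1 in mouse germ cells were in the same list. PRMT5, an arginine methyltransferase, averaged 7.39 ± 0.30 in PGC arrays and 7.05 ± 0.15 in GSC arrays (SD, n = 3 and 6) and did not pass, although it was called without PGC replicate 2 (log2 fold change 0.49). WDR77, its cofactor, averaged 9.31 ± 0.33 in PGC arrays and 7.90 ± 0.29 in GSC arrays and was called 2.66-fold higher. SOX17, which acts upstream of PRDM1 in human germ cells, averaged 5.83 ± 0.13 in PGC arrays and 5.58 ± 0.23 in GSC arrays and did not pass, but was called on the mean of its probe sets (0.45). The 3 genes called lower were of the BMP pathway, which induces germ cells in mouse: SMAD5 (-1.16), BMPR1A (-0.92) and BMP2 (-0.54). Other BMP pathway genes of the list, BMP4 (-0.27), BMP7 (-0.51), SMAD1 (0.03) and ACVR1 (0.38), did not pass. BMP7 was called lower without PGC replicate 1, and ACVR1 higher without GSC replicate 1. BMPR1A was not called with GSC replicates 1 to 3 only. BMP2 was no longer called when PGC replicate 1 or PGC replicate 2 was left out.

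**Figure D4:**
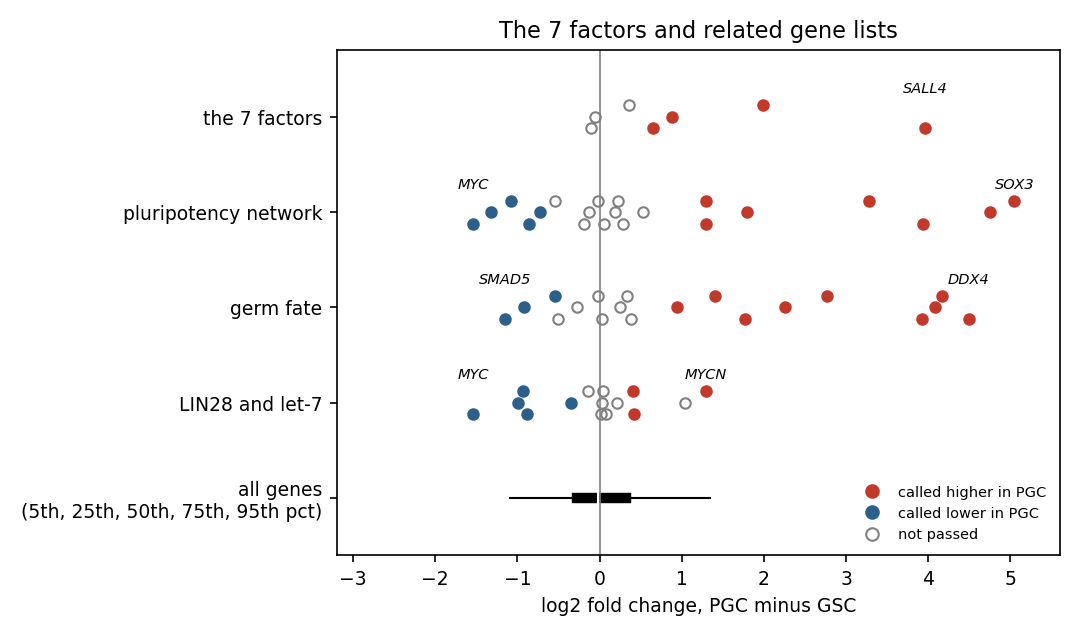
Log2 fold change (PGC minus GSC) of the 7 factors and of the genes in 3 related lists, 1 point per gene, filled red where called higher, filled blue where called lower and open grey where not passed. The black bar spans the 25th to 75th percentile of all genes (-0.28 to 0.32) and the thin line the 5th to 95th (-1.10 to 1.34). SALL4 and TFAP2C lie to the right of that line, and the pluripotency list holds genes on both sides of 0.

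Genes around LIN28 and let-7 formed a list of 15 measured genes, of which 3 were called higher, 5 lower and 7 did not pass (median 0.02). CDC25A (0.42, limma adjusted p = 0.049), called higher, lost its call without PGC replicate 1, PGC replicate 3 or any of GSC replicates 2 to 6. IGF2BP2 (-0.35), called lower, lost its call without PGC replicate 1 or PGC replicate 2. DICER1, the ribonuclease that cuts microRNA precursors, measured 6.82, 7.08 and 6.69 in PGC replicates 1 to 3, against 7.45 to 8.15 in GSC, and was called lower (log2 fold change -0.997 ± 0.16 SE, limma adjusted p = 0.00043). Of the microRNA processing partners, DROSHA (0.21) and DGCR8 (0.02) did not pass. DIS3L2, the exonuclease that degrades let-7 precursors marked through LIN28, did not pass either (0.07).

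Among known let-7 targets, the MYC genes moved in opposite directions. MYCN measured 10.32, 10.15 and 9.64 in PGC replicates 1 to 3, against 8.59 to 8.88 in GSC, and was called 2.44-fold higher. MYC measured 4.92, 4.89 and 5.93 in PGC replicates 1 to 3, against 6.52 to 7.22 in GSC, and was called 2.91-fold lower. The cyclin CCND1 (-0.93) and the chromatin protein HMGA2 (-0.89) were called lower as well, whereas CCND2 (0.40) was called higher. HMGA1 did not pass, and its mean was set by PGC replicate 3, with 2.77, 2.31 and 4.72 in PGC replicates 1 to 3 against 2.02 to 2.54 in GSC. It was called higher without PGC replicate 2 (1.51).

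The families of the 7 factors were compared next. SALL3, a relative of SALL4, measured 5.33, 4.89 and 4.55 in PGC replicates 1 to 3, against 2.05 to 2.58 in GSC, and was at least 4.12-fold higher (log2 fold change 2.58 ± 0.18 SE, limma adjusted p = 1.401e-06). SALL1, also a factor of the kidney, measured 8.06, 8.20 and 7.76 in PGC replicates 1 to 3, against 7.46 to 8.21 in GSC, and did not pass. The 3 other AP-2 genes measured, TFAP2A, TFAP2B and TFAP2E, did not pass, with log2 fold changes of -0.02, 0.34 and -0.09. All 6 GSC arrays were below the mark for each of them, and TFAP2B was called, of the alternatives run, only without GSC replicate 1 (0.39).

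Of 10 relatives of PRDM1, 1 was called higher and 2 lower (median -0.15). MECOM, which regulates blood stem cells, averaged 4.21 ± 0.08 in PGC arrays and 3.13 ± 0.09 in GSC arrays (SD, n = 3 and 6), a 2.12-fold rise. PRDM11 was called 2.03-fold lower, and PRDM2 (-0.39) lost its call without PGC replicate 1, PGC replicate 2, GSC replicate 3 or GSC replicate 6. PRDM2 also lost it on the mean of its probe sets (-0.19). Without PGC replicate 3, PRDM15 (0.66) was also called higher and PRDM4 (-0.64) lower. PRDM15 was called with array weights as well. PRDM4 (limma adjusted p = 0.055) was also called after quantile normalization, without dim probe sets, with array weights or without GSC replicate 3. Of 4 genes with the cold shock domain that LIN28 proteins share, CSDC2 was called at least 1.16-fold higher and YBX1 lower (-0.34). YBX1 was not called when either PGC replicate 1 or PGC replicate 2 was left out.

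Of 11 relatives of KLF4, 4 were called higher and 3 lower (median -0.03). KLF5, which can stand in for KLF4 in mouse stem cells, measured 4.99, 5.45 and 4.74 in PGC replicates 1 to 3, against 3.01 to 3.56 in GSC, a 3.46-fold rise. KLF3 (0.94), KLF10 (0.92) and KLF11 (0.60) were called higher by smaller amounts. KLF11 lost its call without PGC replicate 1 (0.48) and on the mean of its probe sets (0.41). KLF6 measured 7.33, 7.31 and 8.81 in PGC replicates 1 to 3, against 8.72 to 9.47 in GSC, and was called lower (-1.33) with PGC replicate 3 inside the GSC range.

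Of 15 relatives of SOX2, only SOX3 was called higher and 4 were called lower, SOX6, SOX7, SOX8 and SOX10, with log2 fold changes of -0.75 to -0.33 (median of the list -0.38). SOX6 lay below the mark in all 9 arrays. The count of lower genes rested on single arrays: 8 were called lower without PGC replicate 3, 2 without GSC replicate 3 or GSC replicate 5, and 1 without PGC replicate 1, PGC replicate 2 or GSC replicate 6. SOX4, SOX9, SOX11 and SOX18 were the genes added without PGC replicate 3. SOX11, for instance, measured 5.39, 5.29 and 6.59 in PGC replicates 1 to 3, against 6.06 to 6.49 in GSC. Over all related lists together, 24 of 93 genes were called higher (25.8%) and 21 lower (22.6%), shares near those of all genes.

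**Figure D5:**
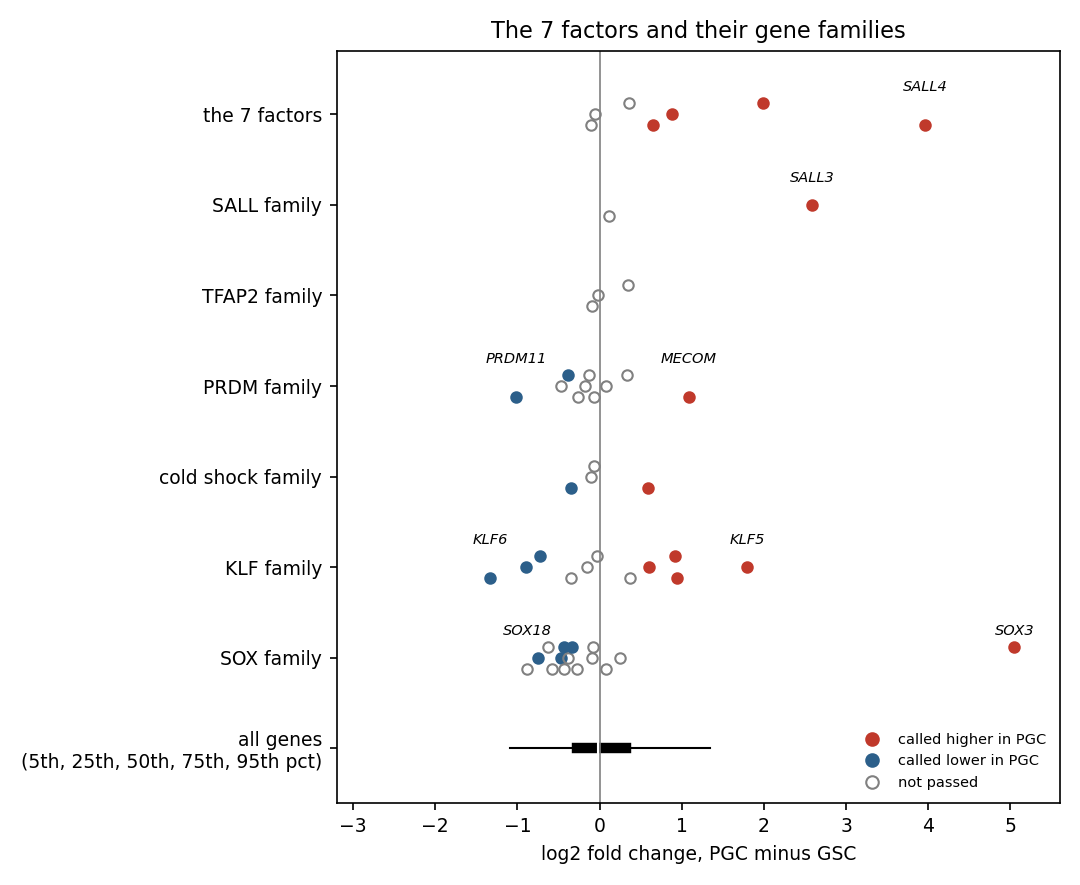
Log2 fold change (PGC minus GSC) of the 7 factors and of their measured relatives, 1 point per gene, filled red where called higher, filled blue where called lower and open grey where not passed. The bottom bar shows the 25th to 75th percentile (-0.28 to 0.32) and the 5th to 95th percentile (-1.10 to 1.34) of all genes. SALL3, MECOM, KLF5 and SOX3 are the relatives furthest to the right in their families, and no AP-2 relative was called.

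Genes near the 7 factors in the RefSeq order of assembly GRCg7b were read from the nearest measured protein-coding gene on each side. That choice was made after the factors' values were seen. Not all were adjacent, as 1 protein-coding gene lay between TFAP2C and RTFDC1 and 13 between KLF4 and PHAX. Of these 14 neighbours, 2 were called higher, 2 lower and 10 did not pass, beside 22.5% higher and 19.5% lower over all genes. ZFP64 and ATP9A, on either side of SALL4, had log2 fold changes of 0.21 and 0.09 and did not pass. BMP7 (-0.51) and RTFDC1 (-0.21), the nearest measured to TFAP2C, did not pass either. BVES (-1.22) and HACE1 (-0.92), which flank LIN28B, were both called lower, while LIN28B was called higher. DHDDS (0.52), next to LIN28A, and DNAJC19 (0.90), next to SOX2, were called higher. For DNAJC19 all 6 GSC arrays and 1 PGC array lay below the reporter mark.

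The genes whose profile was most like that of each called factor were taken by the smallest root-mean-square difference of their centred values over the 9 arrays. The r values below mostly reflect the gap between the fractions that the genes share, and are descriptive. For SALL4 these were TTC39A, LITAF and TUBA3E (r 0.997 each, differences of 0.15 to 0.16), and for TFAP2C they were LMO1, FAM150B and LONRF3 (r 0.981 to 0.991). LIN28A was followed by CCDC103, SEPTIN5 and TAF5L (r 0.955 to 0.973), and LIN28B by MOGAT1, TLR3 and XAF1 (r 0.929 to 0.940).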

How the data were processed

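Biotin-labelled RNA was read on an Affymetrix chicken array, per the labels' protocols. The authors deposited 1 log2 value per probe set and array. The submitters' processing notes name RMA, without a version. That the scale is log2 was taken from the range of the values. Control probe sets (96) were left out. Symbols came from the platform annotation (27178 probe sets with 1 symbol, 177 with several, 11180 with none), set beside RefSeq GRCg7b names, which changed 0 of them. Of 183 list symbols, 141 were measured, 2 through a synonym (ACVR1 as ATVR1 and HBAA as HBA1).

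The gene-level values were fitted on cell fraction with limma 3.58.1 in R 4.3.3 (lmFit and eBayes, two-sided), after the function had been tested on simulated data. P-values were adjusted by Benjamini-Hochberg over all genes. Folds of genes with dim arrays set those arrays at the reporter mark. Named were the 7 factors, up to 4 called genes of each list with the largest change, the 3 most similar genes of each called factor, and genes said to be chosen later or used to describe a list. The members and lists were chosen with earlier results of these data known. Alternatives covered normalization, dim probe sets, probe set choice, variance model, array weights and left-out arrays. Equal replicate numbers were not taken to pair the arrays, as nothing in the labels says that they do. Deviations of same-numbered arrays correlated at 0.19, -0.07 and 0.01, and those of different-numbered arrays at -0.18 to 0.20. So few arrays cannot settle whether they were paired. The 9 arrays limit the precision.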

Additional observations from a re-analysis of the deposited data

Results flagged for a closer look

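A gap test for a single distant array (Dixon's, at 95%) was applied to the 6 GSC values of 34 profiles, the probe sets of the 7 factors and the named list genes, and marked 2 of them, while chance marks about 1 in 20. The brighter LIN28A probe set measured 2.36 in GSC replicate 6, against 2.71 to 2.80 in the other GSC arrays. That value recurs exactly in 963 entries of the deposited table. Without GSC replicate 6 the log2 fold change of LIN28A was 0.81 and it was still called (limma adjusted p = 0.0015). PRDM2 measured 6.83 in GSC replicate 4, against 6.25 to 6.47 in the other GSC arrays.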

How the results depend on the processing

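SALL4, TFAP2C and LIN28A kept their direction and call under all 18 alternatives, with log2 fold changes of 3.80 to 4.18, 1.82 to 2.13 and 0.73 to 1.06. LIN28B kept its call in 16 of 17 and lost it with GSC replicates 1 to 3 only (0.62). PRDM1 was called higher after quantile normalization (0.38), with arrays centred on their medians (0.38) and with array weights (0.41). It was also called on the mean of all probe sets and with limma trend and robust variances (0.36 each). With single arrays left out PRDM1 ranged from 0.27 to 0.48, being called without PGC replicate 1 or GSC replicate 2. PRDM1, TFAP2C, LIN28B, KLF4 and SOX2 had 1 probe set each, so the mean of all probe sets left their own log2 fold changes unchanged. KLF4 and SOX2 were called under none of 17. Leaving out dim probe sets removed PRDM1, LIN28B, KLF4 and SOX2, so that setting gave no value for them. Genes called higher, 2923 in the reported fit against 2543 lower, numbered 1863 and lower 1531 in a fit without GSC replicates 4 to 6 (GSC replicates 1 to 3 only), and 1845 and 1287 with the replicate block on numbers 1 to 3, and 11 related list genes, against 21 as reported, were called lower under either setting. That count was 13 to 28 with single arrays left out, the lowest being without PGC replicate 2. The replicate block changed no call of the 7 factors, and left 0 of 4 neural markers called lower. Faint signal limits PRDM1, LIN28B, KLF4 and SOX2.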

Other observations

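Many faint values in the deposited table are exact repeats. Of 346815 entries, 59606 held 1 of 145 values that occur at least 100 times each, the most common 2914 times. Such repeats made up 27.2% of the entries of probe sets with a mean below the reporter mark, and 1.78% for means of 5 or more and under 8. PRDM1 held them in 6 of 9 arrays, including PGC replicate 1, GSC replicate 3 and GSC replicate 4 at the same 1.69. KLF4 held them in 3 arrays, with 1.65 in PGC replicates 2 and 3 and in GSC replicate 2. LIN28B held them in 2 arrays, TFAP2C, SOX2 and the brighter probe sets of SALL4 and LIN28A in 1 each, and the other SALL4 probe set in 0. SOX2 was also exactly alike, at 2.71, in GSC replicates 1, 4 and 6. LIN28B, which was called, was likewise exactly alike, at 1.39, in GSC replicates 1, 3 and 6. The values behind the spread and SE of the faint genes include such entries. How far the entries affect the SE, and where they come from, was not tested.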
